A study of Rattus norvegicus with 6 samples.

Results

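Transcripts of glycolytic enzymes were examined in primary hippocampal neurons in which cyclin Y (CCNY) was overexpressed or knocked down. The enzymes were chosen by symbol, as Gapdh, Aldoa, Eno1, Eno2, Pgk1, Ldha, Ldhb, Hk1, Tpi1 and Pgam1. Of these 10 genes, 9 were found among the 17066 gene symbols of the expression table, and the expression of Hk1 was not analysed here. The cells came from hippocampi of Sprague-Dawley embryos (rat, embryonic day 18). Lentivirus was added after 5 or 6 days in culture, and RNA was taken at 14 days. The virus carried EGFP alone, CCNY-WT-EGFP for overexpression or CCNY-shRNA-EGFP for knockdown, so that all 3 groups were infected and expressed EGFP. Each group held 2 RNA-seq libraries (replicates 1 and 2). The labels do not say whether replicates came from separate cultures, so the tests measure the spread between these libraries, which may be technical. Expression was given as FPKM, fragments counted per kilobase of transcript and scaled to the mapped fragments of the library, which allows levels of different genes to be compared per length.

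Glycolysis converts glucose to pyruvate in the cytosol. In its preparatory phase glucose is phosphorylated and split into triose phosphates, and in its payoff phase the trioses are oxidised and ATP and NADH are formed. Lactate dehydrogenase then interconverts pyruvate and lactate. Several steps are served by isozymes from separate genes, and neurons are known for the enolase Eno2, which is used as a neuronal marker. In the brain, neurons and astrocytes both express glycolytic enzymes, with the aldolase Aldoc known as an astrocytic form.

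The targeted gene moved as the labels say. Ccny was at 43.1 and 42.3 FPKM in EGFP, 108 and 109 with CCNY-WT and 5.98 and 6.19 with CCNY-shRNA. All 14 neuron markers were at 1 FPKM or more in every library, with summed levels of 8202 to 8539 FPKM, and the GABA-synthesis gene Gad2 was the only one called against EGFP, with a log2 change of -0.41 in CCNY-shRNA (limma adjusted p = 0.0226). Markers of astrocytes, 8 of 10 in the table, summed to 378 and 393 FPKM in EGFP, 404 and 393 with CCNY-WT and 311 and 381 with CCNY-shRNA. Gfap, the strongest of them, weighs most in these sums. By gene, 6 of the 8 were below 0 and 2 above in CCNY-shRNA against EGFP. Their median log2 change was -0.22, against 0 over all genes tested, and 0 were called (smallest limma adjusted p = 0.0768). Microglia markers summed to at most 1.28 FPKM, with Aif1 and Cx3cr1 listed at 0 in all libraries. Read counts were not given, and the depth relative to EGFP replicate 1, estimated from weakly expressed genes, ranged from 0.818 in CCNY-shRNA replicate 1 to 1.33 in CCNY-WT replicate 1. Bc1 was listed at 97548 FPKM in CCNY-WT replicate 1 alone and at 0 in the other libraries.

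Many glycolytic genes are known targets of the hypoxia-inducible factor HIF, which binds a short core motif. Its letters were searched for as ACGTG or GCGTG on both strands, counting overlapping matches separately, in the 250 bases before each annotated start (RefSeq, build GRCr8). Promoter windows were matched for 9 of the 10 genes, 13 windows in all. These are not the 9 genes of the expression table, since Hk1 is included, with 2 windows, and Pgk1 had no window. The motif was found in 9 of the 13 windows, against 36.7% of all 33469 promoter windows. By gene, it was in at least 1 window of 8 of the 9, Tpi1 being the exception. Genes with several windows have more chances of a match, and no share by gene is given to compare. The GC box GGGCGG was found in 7 of the 13 windows (30.5% of all windows) and TATAAA in 1, that of Gapdh (12.9%). A match of letters is a description and not a binding site. The 150 bases before the start are printed for Gapdh, the strongest of these transcripts, for the pair Ldha and Ldhb and for the neuronal enolase Eno2, each of which has a single annotated window. Capitals mark the HIF core letters on either strand. The stretches are chr4:159652468-159652617 on the minus strand, chr1:106507942-106508091 on the plus strand, chr4:177177409-177177558 on the minus strand and chr4:159267221-159267370 on the minus strand.
Gapdh: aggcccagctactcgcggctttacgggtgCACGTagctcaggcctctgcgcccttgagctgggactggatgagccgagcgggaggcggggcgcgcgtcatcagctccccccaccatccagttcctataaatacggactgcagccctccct
Ldha: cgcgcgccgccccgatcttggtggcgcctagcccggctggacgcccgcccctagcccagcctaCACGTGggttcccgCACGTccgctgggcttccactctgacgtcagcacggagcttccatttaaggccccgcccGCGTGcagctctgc
Ldhb: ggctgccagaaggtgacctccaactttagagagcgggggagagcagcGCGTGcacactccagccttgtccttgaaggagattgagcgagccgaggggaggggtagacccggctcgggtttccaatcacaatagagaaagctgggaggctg
Eno2: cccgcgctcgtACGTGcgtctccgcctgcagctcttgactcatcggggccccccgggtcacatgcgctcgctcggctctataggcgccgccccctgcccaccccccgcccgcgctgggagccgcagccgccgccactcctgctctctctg
Ldha held 4 matches in this stretch, 2 of them overlapping in a palindrome, and Gapdh, Ldhb and Eno2 held 1 each. The other 2 matches of Gapdh lay farther upstream, within the 250 bases searched.

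In the preparatory phase, Aldoa, the aldolase that splits fructose-1,6-bisphosphate, was at 940.3 and 949 FPKM in EGFP, 924 and 967 with CCNY-WT and 929.8 and 1042.5 with CCNY-shRNA. The values of both CCNY groups lay on either side of the EGFP values. The fitted log2 change from EGFP was 0.00072 (SE 0.0759) in CCNY-WT and 0.059 (SE 0.0759) in CCNY-shRNA, with limma adjusted p of 1 and 0.731. Tpi1, triosephosphate isomerase, was at 529 and 498 FPKM in EGFP, 544 and 546 with CCNY-WT and 501 and 557 with CCNY-shRNA. Both CCNY-WT values were above both EGFP values, whereas CCNY-shRNA overlapped with EGFP. Its log2 change was 0.086 in CCNY-WT (SE 0.0695, limma adjusted p = 0.854) and 0.041 in CCNY-shRNA (SE 0.0695, limma adjusted p = 0.803).

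The payoff phase starts with Gapdh, glyceraldehyde-3-phosphate dehydrogenase, which also serves as a common reference gene. Gapdh was at 2985 and 3000.4 FPKM in EGFP, 2917 and 3007 with CCNY-WT and 2884 and 3264 with CCNY-shRNA. The lowest and the highest of the 6 values were both in CCNY-shRNA. The log2 change was -0.015 in CCNY-WT and 0.036 in CCNY-shRNA (SE 0.0959 in both, limma adjusted p = 0.984 and 0.886). Pgk1, the X-linked phosphoglycerate kinase of the first ATP-forming step, was at 339 and 361 FPKM in EGFP, 354 and 360.3 with CCNY-WT and 356 and 382 with CCNY-shRNA. CCNY-WT lay within the EGFP values and CCNY-shRNA overlapped with them. Its log2 change was 0.029 in CCNY-WT and 0.077 in CCNY-shRNA (SE 0.0615 in both, limma adjusted p = 0.950 and 0.548).

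Pgam1, the phosphoglycerate mutase gene, differed from the other enzymes in its level. It was listed at 0 in both EGFP libraries, in CCNY-WT replicate 2 and in CCNY-shRNA replicate 1, and at 1.002 and 1.105 FPKM in CCNY-WT replicate 1 and CCNY-shRNA replicate 2. A value of 0 in a table without read counts can be a failed estimate, so no fold is given. Pgam1 passed the filter for testing by these 2 values alone. RefSeq lists 13 entries named as pseudogenes of Pgam1, and near-identical copies can take reads from a gene. The numbers were 79 for Gapdh, 30 each for Eno1 and Ldha, 9 for Aldoa, 8 for Pgk1, 3 for Tpi1, 1 for Ldhb and 0 for Eno2, so the levels of the genes with many copies are less certain. How the copies bear on the levels was not tested. Pgam2, the muscle form, was at 3.94 and 3.86 FPKM in EGFP, 5.33 and 4.53 with CCNY-WT and 3.78 and 4.38 with CCNY-shRNA.

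Enolase forms phosphoenolpyruvate. Eno1, the widely expressed form, was at 868 and 871 FPKM in EGFP, 850.3 and 874 with CCNY-WT and 837 and 934 with CCNY-shRNA. Both CCNY groups spanned the EGFP values, with the lowest and the highest library in CCNY-shRNA. Eno2, the neuronal form, was at 567 and 601 FPKM in EGFP, 579 and 589 with CCNY-WT and 562 and 578 with CCNY-shRNA. Both CCNY groups overlapped with EGFP, and the highest value was that of EGFP replicate 2. Both CCNY-shRNA values were below both CCNY-WT values, although the nearest, 578 and 579, lay next to each other. The log2 change of Eno2 between these groups was -0.035 (limma adjusted p = 0.867). The share of all genes that did not overlap between them is not given. The log2 change in CCNY-shRNA was 0.025 for Eno1 (SE 0.0725, limma adjusted p = 0.897) and -0.036 for Eno2 (SE 0.0599, limma adjusted p = 0.800). In CCNY-WT it was -0.011 for Eno1 and -0.00056 for Eno2 (limma adjusted p = 0.984 and 1).

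The lactate dehydrogenase subunits are Ldha, known to favour the formation of lactate, and Ldhb, known to favour its use. Ldha was at 889 and 902 FPKM in EGFP, 914 and 940.4 with CCNY-WT and 903 and 985 with CCNY-shRNA. It was the only one of the 9 genes with all values of both CCNY groups above both EGFP values, although the lower CCNY-shRNA value lay next to the higher EGFP value. Its log2 change was 0.049 in CCNY-WT and 0.073 in CCNY-shRNA (SE 0.0693 in both, limma adjusted p = 0.919 and 0.619). Ldhb was at 359 and 364 FPKM in EGFP, 345 and 382 with CCNY-WT and 341 and 360.4 with CCNY-shRNA. CCNY-WT spanned the EGFP values and CCNY-shRNA overlapped with them. Its log2 change was 0.0052 in CCNY-WT and -0.045 in CCNY-shRNA (SE 0.0663 in both, limma adjusted p = 0.993 and 0.769).

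**Figure D1:**
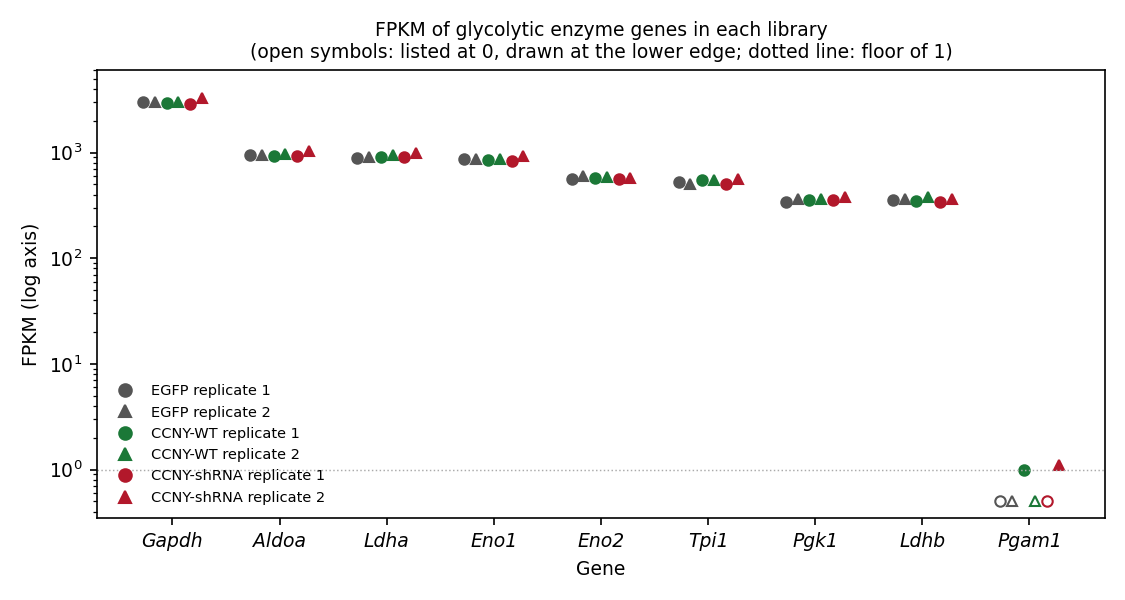
FPKM on a log axis of the 9 glycolytic enzyme genes in each of the 6 libraries, with EGFP in grey, CCNY-WT in green and CCNY-shRNA in red, replicate 1 as circles and replicate 2 as triangles. Gapdh lies near 3000 FPKM in every library, 7 genes lie between 339 and 1042.5, and Pgam1 is listed at 0 in 4 libraries (open symbols at the lower edge).

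The genes kept a stable order of levels. By mean FPKM over the 6 libraries Gapdh ranked 5th of the 17066 genes of the table, Aldoa 51st, Ldha 53rd, Eno1 64th, Eno2 125th, Tpi1 146th, Pgk1 261st and Ldhb 262nd. In each of the 6 libraries Gapdh was 3.10 to 3.17 times as high as Aldoa. Aldoa was 1.01 to 1.06 times as high as Ldha, and Ldha 1.03 to 1.08 times as high as Eno1, in 6 of 6 libraries each, although the ranges over libraries overlapped for both pairs of neighbours. Eno1 was 1.45 to 1.62 times as high as Eno2, Eno2 1.04 to 1.21 times as high as Tpi1 and Tpi1 1.38 to 1.56 times as high as Pgk1, with no overlap of ranges. Pgk1 and Ldhb did not differ beyond their spread, with Pgk1 higher in 3 of 6 libraries and a ratio of 0.944 to 1.06. These are levels per length and were not tested, and mRNA levels do not give enzyme amounts.

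CCNY overexpression was compared with EGFP to ask whether added CCNY moves the transcripts. No glycolytic enzyme passed limma's threshold of an adjusted p of 0.05 in CCNY-WT, 0 of 9 tested, and 0 had an unadjusted p under 0.05. Over all 10188 genes tested, 0.00982% were called, which was 1 gene, Ccny itself. For the 8 enzymes above 1 FPKM in every library, which leaves out Pgam1, the median log2 change was 0.0029, against 0.0041 over all genes tested, and 5 of the 8 were above 0. This median lay so near 0 that it turned sign, to -0.010 without EGFP replicate 1, -0.022 without CCNY-WT replicate 2, -0.0076 with median scaling and -0.0072 with quantile normalization, and it was 0.037 without CCNY-WT replicate 1, 0.029 without EGFP replicate 2 and 0.018 with Gapdh scaling. For the same 8 enzymes the 95% confidence intervals of the fold change lay between 0.848 and 1.19. By the study's own fold threshold, a log2 difference of at least 0.3, applied here without a test, 0 of the 9 enzymes were counted and 5.11% of all genes. The paper also names cuffdiff for selecting genes, and its counts of genes differ from those found here. Both CCNY-WT libraries were above both EGFP libraries for Ldha and Tpi1 and below them for 0 enzymes, whereas 39.5% of all genes tested did not overlap in one direction or the other.

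After CCNY knockdown no enzyme passed the limma threshold either, 0 of 9 tested, with 0 at an unadjusted p under 0.05 and a smallest adjusted p of 0.548 for Pgk1. Over all genes tested 0.746% were called. The median log2 change of the 8 enzymes above 1 FPKM was 0.038 against 0 over all genes tested, and 6 of the 8 were above 0, Eno2 and Ldhb being below. The median was 0.12 without CCNY-shRNA replicate 1 and turned direction, to -0.044, without CCNY-shRNA replicate 2. It was also below 0 with quantile normalization (-0.016) and 0.0026 with Gapdh scaling. The 95% confidence intervals of the 8 enzymes above 1 FPKM lay between a fold of 0.871 and 1.20. No enzyme reached the study's log2 difference of 0.33, which 7.92% of all 17066 genes did, again counted over genes of every level. Ldha alone did not overlap with EGFP, against 48.4% of all genes tested.

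In the direct comparison of CCNY-shRNA with CCNY-WT, limma called 0 of 9 enzymes and 0.216% of all genes tested, and 0 enzymes had an unadjusted p under 0.05. The smallest adjusted p was 0.815. Log2 changes of the 8 enzymes above 1 FPKM ranged from -0.050 for Ldhb to 0.059 for Aldoa. Their median was 0.030, against 0.00098 over all genes tested. It was -0.041 without CCNY-shRNA replicate 2, -0.029 with quantile normalization and -0.021 with Gapdh scaling, and it was 0.0097 without CCNY-WT replicate 1, 0.051 without CCNY-WT replicate 2 and 0.093 without CCNY-shRNA replicate 1. The 95% intervals of the fold lay between 0.867 and 1.21 for the same 8. The comparisons share libraries in pairs and are not independent of one another.

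**Figure D2:**
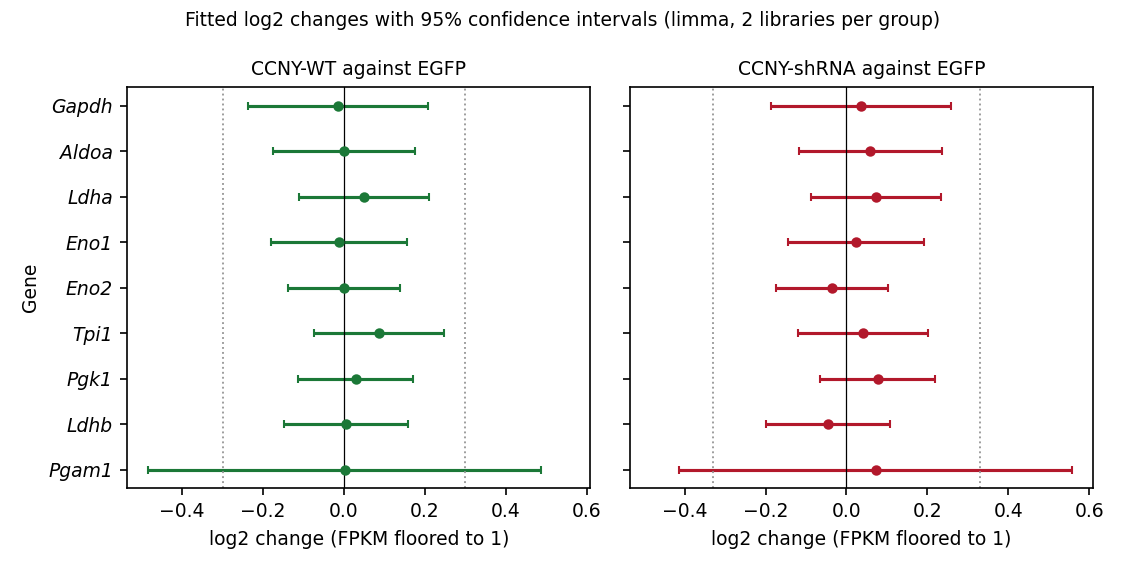
Fitted log2 changes from EGFP (x axis, FPKM floored to 1) of the 9 genes in CCNY-WT (left) and CCNY-shRNA (right), with limma 95% confidence intervals as bars and the study's thresholds of 0.3 and 0.33 as dotted lines. Every interval crosses 0, and that of Pgam1 alone reaches beyond the dotted lines.

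The enzymes varied together between the 2 CCNY-shRNA libraries. CCNY-shRNA replicate 2 held the highest value of the 6 libraries for 6 of the 8 enzymes above 1 FPKM in every library, and CCNY-shRNA replicate 1 the lowest value for 4 of the 8. The log2 difference of replicate 2 from replicate 1 was above 0 for 8 of 8 enzymes in CCNY-shRNA, from 0.042 to 0.18, with a median of 0.14. For the 324 genes with a mean of at least 300 FPKM this median was 0.10, and for all genes tested it was -0.0027. Of these 324 genes 248 were above 0 in CCNY-shRNA, and of all 10188 genes tested 4940 were. In EGFP the median over the 8 enzymes was 0.017 and in CCNY-WT 0.041. There too replicate 2 was mostly the higher, for 7 of 8 enzymes in EGFP and 8 of 8 in CCNY-WT. Of the 324 genes 174 were above 0 in EGFP and 212 in CCNY-WT, with medians of 0.0085 and 0.027. Of all 10188 genes tested 5030 were above 0 in EGFP and 5082 in CCNY-WT. Summed over the 8 enzymes, the level was 7477 and 7548 FPKM in EGFP, 7428 and 7665 with CCNY-WT and 7314 and 8102 with CCNY-shRNA, so that the CCNY-shRNA libraries lay below and above all others. The replicates also differed in relative depth (0.818 and 1.15) and in summed astrocyte markers (311 and 381 FPKM), whose part in the difference was not tested.

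Ratios of isozymes were compared within libraries, where the scaling of a library cancels out. The FPKM ratio of Eno2 to Eno1 was 0.654 and 0.690 in EGFP, 0.681 and 0.673 with CCNY-WT and 0.671 and 0.619 with CCNY-shRNA. The lowest ratio was in CCNY-shRNA replicate 2. Both CCNY groups overlapped with EGFP. Both CCNY-shRNA ratios were below both CCNY-WT ratios, but only narrowly, at 0.671 against 0.673 for the nearest libraries. Ratios of the CCNY groups were not tested against each other. The ratio of Ldhb to Ldha was 0.403 and 0.404 in EGFP, 0.377 and 0.406 with CCNY-WT and 0.377 and 0.366 with CCNY-shRNA. Here both CCNY-shRNA ratios were below both EGFP ratios, by 0.12 on the log2 scale (exact permutation test, two-sided, p = 0.333). With 2 libraries per group 0.333 is the smallest p that this test can give, so no difference of a ratio could pass 0.05. For Eno2 to Eno1 the log2 difference from EGFP was 0.011 in CCNY-WT and -0.060 in CCNY-shRNA (exact permutation p = 1 and 0.667), and for Ldhb to Ldha in CCNY-WT it was -0.044 (exact permutation p = 1).

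Aldoc, the second brain aldolase, was set against Aldoa in the same way. The ratio of Aldoc to Aldoa was 0.173 and 0.198 in EGFP, 0.184 and 0.180 with CCNY-WT and 0.173 and 0.157 with CCNY-shRNA. The log2 difference from EGFP was -0.023 in CCNY-WT and -0.17 in CCNY-shRNA (exact permutation p = 1 and 0.667). Both CCNY groups overlapped with EGFP. Both CCNY-shRNA ratios were below both CCNY-WT ratios, a difference that was not tested. When libraries were left out in turn, the difference ranged from -0.12 (without EGFP replicate 1) to 0.073 (without EGFP replicate 2) in CCNY-WT and from -0.26 to -0.069 in CCNY-shRNA, without the same libraries. Aldoc itself was at 162 and 188 FPKM in EGFP, 169.7 and 174 with CCNY-WT and 161 and 164 with CCNY-shRNA. The ratio was lowest in CCNY-shRNA replicate 2, where Aldoa was at its highest, 1042.5 FPKM. Aldoc itself and the summed astrocyte markers were both lowest in CCNY-shRNA replicate 1, where the ratio was 0.173, as in EGFP replicate 1. How astrocyte content bears on the ratio was not tested. In bulk libraries, fewer cells of a type and less RNA per cell cannot be told apart. Of summed aldolase FPKM, Aldoa made up 84.4% in EGFP, 84.6% with CCNY-WT and 85.8% with CCNY-shRNA, and Ldha made up 71.2%, 71.9% and 72.9% of summed lactate dehydrogenase FPKM.

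**Figure D3:**
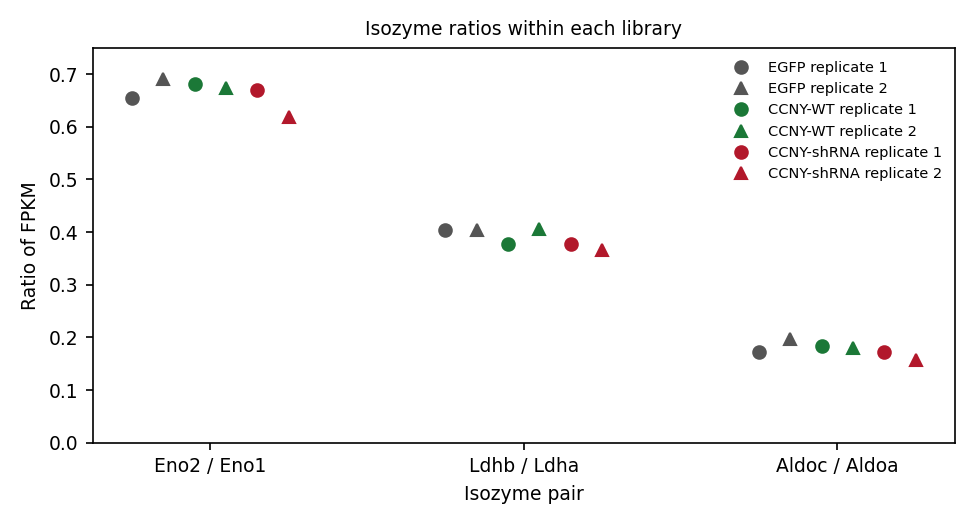
Ratio of FPKM of 2 isozymes of the same step (y axis, from 0) in each library, with EGFP in grey, CCNY-WT in green and CCNY-shRNA in red. The ratio of Ldhb to Ldha is at 0.377 and 0.366 in CCNY-shRNA and at 0.403 and 0.404 in EGFP. In the other 2 ratios both CCNY groups overlap with EGFP. CCNY-shRNA lies below CCNY-WT in them, but only narrowly for Eno2 to Eno1 (0.671 against 0.673 for the nearest libraries).

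The rest of the pathway was read from lists of genes. Of 20 other glycolytic isozymes 19 were in the table and 12 were tested, and limma called 0 in any comparison. An unadjusted p under 0.05 was found for 2 of them in CCNY-shRNA against EGFP and 0 in CCNY-WT. The share of all genes tested that fell under 0.05 unadjusted is not given, for this list or those below. Such counts are therefore not read as results. Pfkp, the platelet-type phosphofructokinase of the committed step, was at 245 and 253 FPKM in EGFP, 251 and 252 with CCNY-WT and 276 and 287 with CCNY-shRNA. Both CCNY-shRNA values were above all others (log2 change 0.18, SE 0.0523, limma adjusted p = 0.142), but the difference did not pass the threshold. The log2 change in CCNY-shRNA was 0.32 for Adpgk, an ADP-dependent glucokinase, and 0.17 for Bpgm, bisphosphoglycerate mutase (limma adjusted p = 0.201 and 0.391). Against CCNY-WT the smallest p-values were those of Pfkp (0.16), Adpgk (0.23) and Pgam2 (-0.27), with limma adjusted p of 0.301, 0.481 and 0.563. Hk2, a hexokinase of the first step, was at 0.922 and 2.001 FPKM in EGFP, 1.54 and 0.832 with CCNY-WT and 1.01 and 0.715 with CCNY-shRNA, near the floor in every library.

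Transporters of glucose, lactate and pyruvate, 9 of 11 tested, held 0 calls in any comparison, and 2 had an unadjusted p under 0.05 in CCNY-shRNA against EGFP. Mpc1, a subunit of the carrier that takes pyruvate into mitochondria, was at 106 and 111 FPKM in EGFP, 117 and 124 with CCNY-WT and 135 and 151 with CCNY-shRNA. The 3 groups did not overlap, and CCNY-shRNA was the highest. The share of all genes with 3 separate groups is not given. Mpc2 of the same list went the other way, with log2 changes from EGFP of -0.17 in CCNY-shRNA and -0.21 in CCNY-WT (limma adjusted p = 0.427 and 0.761). For Mpc1 the log2 change in CCNY-shRNA was 0.39 (SE 0.0700, limma adjusted p = 0.0550), which missed the threshold. Against CCNY-WT it was 0.25 (limma adjusted p = 0.260). Against EGFP it passed without CCNY-shRNA replicate 1 (0.48), and at an unchanged 0.39 also with a filter on a mean of at least 1 FPKM or with a replicate block. In CCNY-shRNA the log2 change was -0.23 for the monocarboxylate transporter Slc16a7 and -0.21 for the inositol transporter Slc2a13 (limma adjusted p = 0.219 and 0.307). Against CCNY-WT it was -0.22 for Slc16a7 and -0.24 for the glucose transporter Slc2a1 (limma adjusted p = 0.374 and 0.517).

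Regulators of glycolytic flux, 14 of 17 tested, also held 0 calls in any comparison, with an unadjusted p under 0.05 for 2 of them in CCNY-shRNA against EGFP. Txnip, which restrains glucose uptake, was at 3.60 and 3.90 FPKM in EGFP, 3.75 and 4.70 with CCNY-WT and 8.96 and 5.85 with CCNY-shRNA. Both CCNY-shRNA values were above all others, but they differed from each other by more than the other groups did. The log2 change was 0.95 (SE 0.226, limma adjusted p = 0.0934), and 0.79 against CCNY-WT (limma adjusted p = 0.260). For Pdp1, a pyruvate dehydrogenase phosphatase, and Tigar, a fructose-2,6-bisphosphatase, the log2 change from EGFP was 0.21 and 0.16 (limma adjusted p = 0.267 and 0.308). Against CCNY-WT it was 0.097 for Tigar and 0.12 for the pyruvate dehydrogenase kinase Pdk2 (limma adjusted p = 0.662 and 0.707).

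Among genes of pathways that branch from glycolysis, 20 of 23 were tested, and 1 was called, lower in CCNY-shRNA. This was Gpd1l, a glycerol-3-phosphate dehydrogenase-like protein, at 50.0 and 42.0 FPKM in EGFP, 45.7 and 40.1 with CCNY-WT and 17.0 and 20.5 with CCNY-shRNA. Both CCNY-shRNA libraries were below all others. Gpd1l fell by 1.29 on the log2 scale against EGFP (SE 0.121, limma adjusted p = 0.0112) and by 1.20 against CCNY-WT (SE 0.121, limma adjusted p = 0.0139). The change against EGFP was -1.17 without EGFP replicate 1 and -1.42 without EGFP replicate 2, and neither passed the threshold. Against CCNY-WT it was -1.10 without CCNY-WT replicate 1 and -1.29 without CCNY-WT replicate 2, again without passing. With all libraries kept, the call was also lost in both comparisons when genes were not filtered or the trend was left out of the fit. The log2 change from EGFP was 0.25 for Taldo1 of the pentose phosphate pathway and 0.29 for Psph of serine synthesis (limma adjusted p = 0.0990 and 0.173). Against CCNY-WT the log2 change was 0.36 for Psph and -0.16 for the glycogen phosphorylase Pygb (limma adjusted p = 0.238 and 0.333). In CCNY-WT against EGFP 0 of these genes were called and 2 had an unadjusted p under 0.05.

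Of other HIF target genes, 8 of 12 were tested and 0 were called in any comparison, with an unadjusted p under 0.05 for 1 of them in CCNY-shRNA against EGFP. Ndrg1, a stress-responsive gene, was at 11.8 and 14.3 FPKM in EGFP, 11.0 and 9.87 with CCNY-WT and 7.91 and 8.58 with CCNY-shRNA. Its CCNY-shRNA values were the lowest (log2 change -0.66, SE 0.136, limma adjusted p = 0.0768), without passing the threshold. The log2 change from EGFP was -0.69 for Ankrd37 and 0.10 for the mitophagy gene Bnip3 (limma adjusted p = 0.287 and 0.312). Against CCNY-WT it was -0.34 for Ndrg1, -0.71 for Ankrd37 and 0.095 for Bnip3 (limma adjusted p = 0.384, 0.421 and 0.499). In CCNY-shRNA against EGFP the median log2 change was 0.053 for the other isozymes, -0.018 for transporters, 0.12 for regulators, -0.032 for branches and -0.026 for other HIF targets, beside 0.038 for the 8 enzymes above 1 FPKM.

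**Figure D4:**
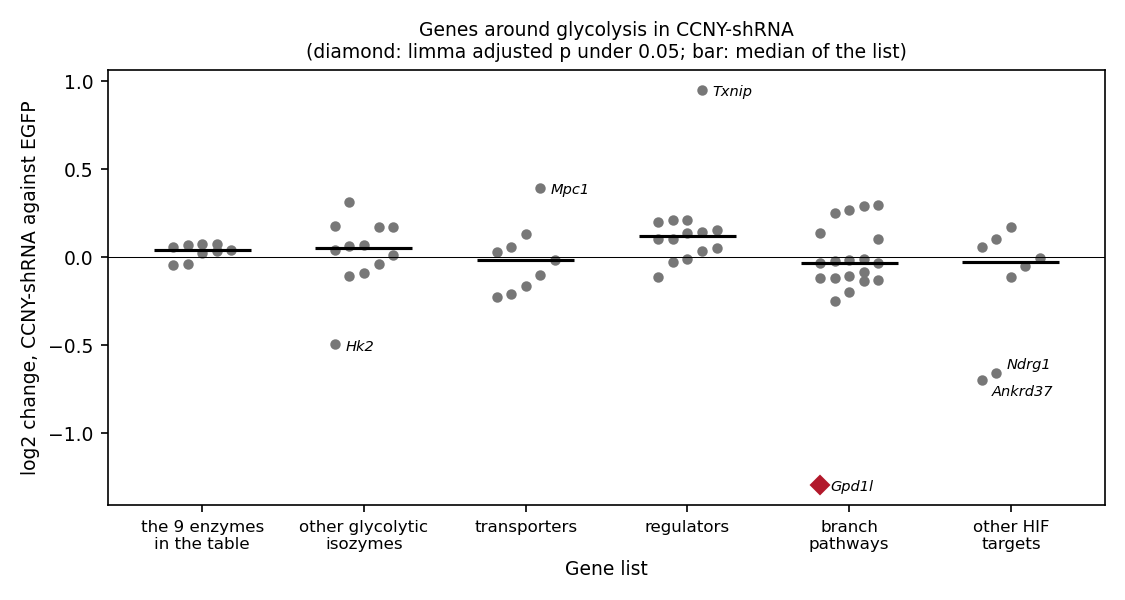
Fitted log2 change of CCNY-shRNA against EGFP (y axis) for each tested gene of the 6 lists, with the median of a list as a bar and a red diamond for a limma adjusted p under 0.05. The 9 enzymes, Pgam1 at its floored values included, lie between -0.045 and 0.077, and Gpd1l, at -1.29, is the only diamond.

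Gapdh was the reference gene of the study's qRT-PCR, so the spread of the enzymes was set against that of other common reference genes. Over the 6 libraries the coefficient of variation (CV) of FPKM was 4.45% for Gapdh, 4.56% for Aldoa, 3.79% for Ldha, 3.81% for Eno1 and 2.47% for Eno2. It was 4.61% for Tpi1, 3.89% for Pgk1 and 4.11% for Ldhb. All 8 lay under 6.13%, the median CV of the 324 genes with a mean of at least 300 FPKM, whose quartiles were 4.32% and 8.31%. Among 12 reference genes compared here Gapdh was 7th from the lowest CV and Pgk1 4th. Sdha, a succinate dehydrogenase subunit, had the lowest CV, 2.31%, followed by Ywhaz (3.20%) and Rpl13a (3.81%). Actb and Tfrc were each at 4.27%, next below Gapdh, and Ppia (5.17%), Hprt1 (6.31%), Tbp (8.79%), B2m (11.6%) and Gusb (25.5%) were above it. The CV of weakly expressed genes such as Gusb, at a mean of 0.801 FPKM, also holds counting error.

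**Figure D5:**
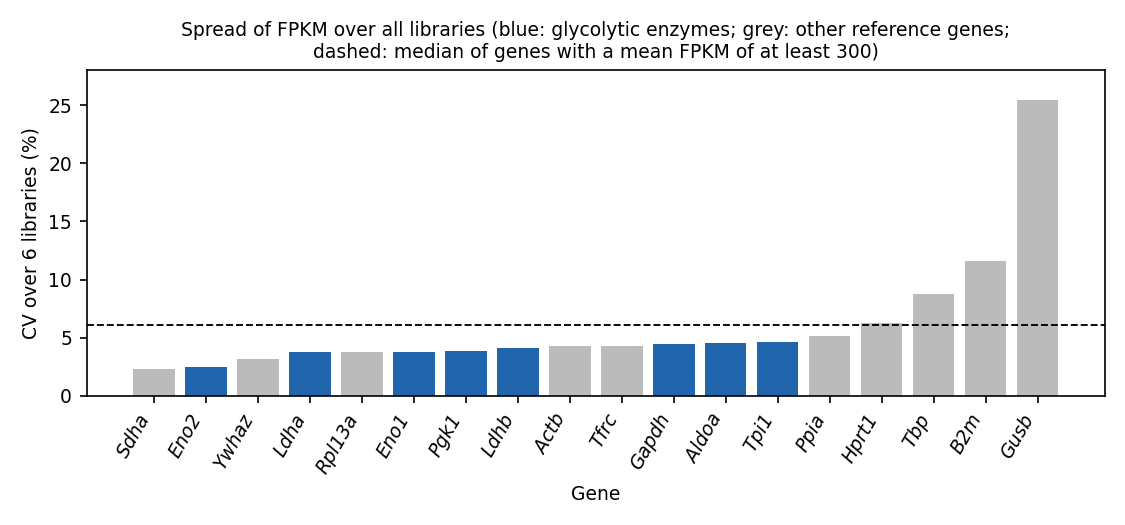
CV of FPKM over the 6 libraries in percent (bars from 0) for the 8 enzymes above 1 FPKM in every library (blue) and other reference genes (grey), with the median of the 324 strongly expressed genes as a dashed line. The blue bars lie between 2.47% and 4.61%, all below the line at 6.13%.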

How the data were processed

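Poly-A RNA was sequenced in 6 libraries, and the authors mapped reads to build rn4 and computed FPKM values with Cufflinks. The submitters' processing notes name TopHat2 2.0, Bowtie2 2.1.0, Cufflinks 2.2.1, SAMtools 0.1.19 and R 3.1.0. The deposited table gives FPKM per gene symbol and no counts, and the annotation is not given in the sources used here.

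Values under 1 FPKM were set to 1, and log2 was taken. Fits used limma 3.58.1 in R 4.3.3 (lmFit, contrasts.fit, eBayes with trend) on all 6 libraries and 10188 genes with at least 1 FPKM in 2 or more libraries, with Benjamini-Hochberg adjustment over all of them and a threshold of 0.05. The code was tested on simulated data. Because of the floor, fold changes of weak genes are understated. Ratios of isozymes were tested with exact permutation tests written out in Python 3.11.15, and scipy 1.17.1 gave the t quantiles of the confidence intervals. RefSeq tables of build GRCr8 gave names, pseudogene entries and promoter sequences, and their coordinates were not mixed with rn4.

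The enzymes and gene lists were chosen with earlier results of these data known. Named are all enzymes, the isozymes of the ratios and genes past the threshold. In each list, the 3 with the smallest p in each comparison with CCNY-shRNA are named too, and Mpc2 beside Mpc1. Alternatives covered the offset, filter, scaling, spread estimate, samples in the fit, a replicate block and leaving out each library. The values of 1 reference gene are not reported here.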

Additional observations from a re-analysis of the deposited data

How the results depend on the processing

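With limma, 0 of the tested enzymes were called in any of the 3 comparisons under every alternative run, and adjusted p was at least 0.238. That value came without CCNY-shRNA replicate 1, where Aldoa and Ldha had an unadjusted p under 0.05. The replicate block also gave 0 calls among the enzymes, while the calls over all genes in CCNY-shRNA against EGFP went from 76 to 39. Correlations of replicate deviations between groups were 0.038 to 0.054, so the numbers were not taken to pair the samples, and Mpc1 passed the threshold under the block. Gpd1l lost its call without the filter and without the trend, in both comparisons, and without EGFP or CCNY-WT replicates in the comparison that used them. Over all genes, calls in CCNY-shRNA against EGFP were 108 with a filter on the mean, 42 with Gapdh scaling, 25 with the 2 groups alone, 2 without the filter, 1 without the trend and 1 to 86 when libraries were left out. In CCNY-shRNA against CCNY-WT they were 22, and 1 to 32 over the alternatives, and in CCNY-WT against EGFP 1 to 5. A lone library was assumed to vary like the other groups. Adding 1 or 0.1 in place of the floor put 1 enzyme, Pgam1, past the study's threshold in both CCNY-WT and CCNY-shRNA.

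When libraries were left out in turn, the median log2 change of all 9 enzymes, which was 0.0015, 0.041 and 0.036 in the 3 comparisons, ranged from -0.012 to 0.037 in CCNY-WT against EGFP, from -0.044 to 0.13 in CCNY-shRNA against EGFP and from -0.041 to 0.099 against CCNY-WT. Quantile normalization gave 0, -0.015 and -0.0082, median scaling -0.0054 in CCNY-WT and Gapdh scaling -0.015 in CCNY-shRNA against CCNY-WT. The median without Pgam1 was added after seeing the data. The log2 ratio difference ranged from -0.12 to -0.0026 for Eno2 to Eno1 in CCNY-shRNA and from -0.097 (without CCNY-WT replicate 2) to 0.0085 (without CCNY-WT replicate 1) for Ldhb to Ldha in CCNY-WT. Changes close to 0 turned sign, none of them called. In CCNY-WT the ranges of the log2 change were -0.032 to 0.033 for Aldoa, -0.032 to 0.0088 for Eno1, -0.042 to 0.041 for Eno2, -0.037 to 0.0067 for Gapdh, -0.068 to 0.078 for Ldhb and -0.016 to 0.074 for Pgk1. In CCNY-shRNA they were -0.023 to 0.14 for Aldoa, -0.054 to 0.10 for Eno1, -0.077 to 0.0060 for Eno2, -0.053 to 0.13 for Gapdh and -0.034 to 0.12 for Tpi1. With median scaling, CCNY-WT gave -0.0098 for Aldoa and -0.0054 for Ldhb. With quantile normalization it gave -0.022 for Aldoa and -0.014 for Ldhb, and CCNY-shRNA gave -0.0097 for Aldoa, -0.053 for Eno1, -0.017 for Ldha and -0.015 for Tpi1. With Gapdh scaling, CCNY-WT gave 0.0036 for Eno1 and 0.014 for Eno2, and CCNY-shRNA -0.011 for Eno1. The cause was not tested. The ratio of Hk1 to Hk2 was not run. The unknown read depth limits Pgam1 and Hk2, which lie near the floor.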
